A study of Mus musculus with 10 samples.

Results

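The genes described here encode the receptors for glutamate, GABA and glycine, and they were measured in the prostates of TRAMP mice. They were taken by symbol: those starting with Gria, Grik, Grin or Grm and a digit, and those starting with Gabra, Gabrb, Gabrg, Gabrd, Gabre, Gabrp, Glra or Glrb. The rule found 39 of the 19938 genes on the array that had a probe set with 1 gene symbol. They comprised 4 AMPA, 5 kainate and 6 NMDA receptor subunits, 7 metabotropic glutamate receptors, 12 GABA-A receptor subunits and 5 glycine receptor subunits. No filter on level was applied, and 19 of the 39 had a mean above 6.55 log2 units, the level below which the 25% lowest genes lay.

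Whole prostate RNA came from 10 male TRAMP mice, 1 array per mouse. All 10 carried the TRAMP transgene, in which the probasin (Pbsn) promoter drives viral T antigens in prostate epithelium, so the water mice are tumour-prone too and no mouse without the transgene was used here. Treatment began at 8 to 9 weeks of age: tap water alone for 5 mice, and 250 µg/ml of nicotine, supplied as the tartrate salt in the tap water, for the other 5. The labels do not state the age at collection. Mice are numbered 1 to 5 within each group, as in the labels.

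Glutamate opens AMPA, kainate and NMDA receptors, which are cation channels that excite neurons, and it also acts on metabotropic receptors, which signal through G proteins. GABA and glycine open chloride channels that mostly inhibit neurons. These receptors are built from subunits made by separate genes and are best known at synapses in the brain and spinal cord. Some subunits are also found in nerves, endocrine cells and epithelia of other organs, and neuroendocrine prostate tumours are known to switch on neuronal genes.

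A pair of arrays stood apart from the rest in all genes, which bears on every result that follows. Each array's correlation with the remaining arrays over all genes had a median of 0.838 in nicotine 3, 0.945 in nicotine 1 and 0.992 to 0.994 in the other 8. The labelled tissue was present in 9 mice by its marker Pbsn, which read 10.95 to 11.54 in the water mice and 9.17 in nicotine 1, but read 5.08 in nicotine 3. Markers of luminal prostate cells, 13 of 15 on the array, averaged 11.5 to 11.8 in the water mice, 10.7 in nicotine 1 and 6.96 in nicotine 3. In bulk tissue, fewer cells of a type and less RNA per cell cannot be told apart. Results are therefore given with and without nicotine 1 and 3.

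The receptor genes were at similar levels in 8 of the mice and differed in nicotine 1 and 3. Their mean log2 value was 6.40 ± 0.06 (SD, n = 5) in the water mice, 6.72 in nicotine 1, 7.71 in nicotine 3 and 6.41 to 6.42 in nicotine 2, 4 and 5. In nicotine 3, 17 of 39 receptor genes (43.6%) were at least 1 log2 unit above every water mouse, a difference reached by 7.81% of all genes in that mouse. In nicotine 1 the count was 5 of 39 (12.8%), against 3.78% of all genes, and 4 of these 5 were also among the 17. Only 1 receptor gene, Gabrp, lay that far below every water mouse, in nicotine 1 and in nicotine 3, where 2.13% and 9.17% of all genes did. Counting either mouse, 18 of 39 (46.2%) were above, against 9.28% of all genes. In nicotine 2, 4 and 5 the counts above were 0 of 39, against 0.0853%, 0.0401% and 0.01% of all genes, and those below were 0 of 39, against 0.01%, 0.00502% and 0.0%. Of the 39 genes, 17 stayed within 0.5 log2 units of the water range in every nicotine mouse, 3 came between 0.5 and 1 unit outside it, and 19 went further.

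**Figure D1:**
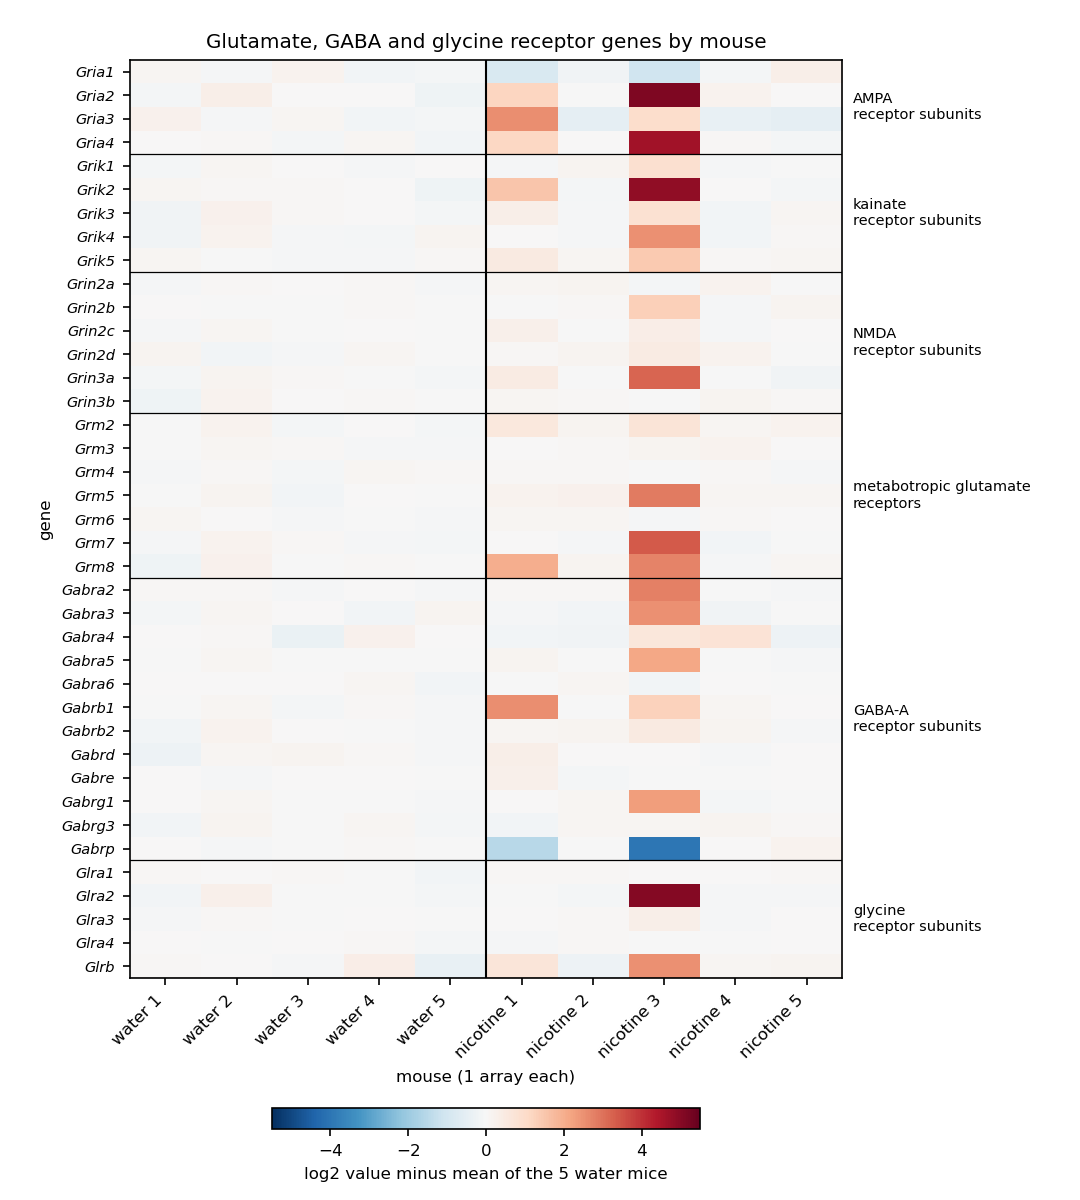
Colour gives the log2 value of each of the 39 receptor genes (rows, grouped by receptor class) in each mouse (columns) minus the mean of the 5 water mice, on the scale under the map. The column of nicotine 3 holds most of the strong colours, with Gria2 5.15 log2 units above the water mean and Gabrp below it, and nicotine 1 shares some of them.

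**Figure D2:**
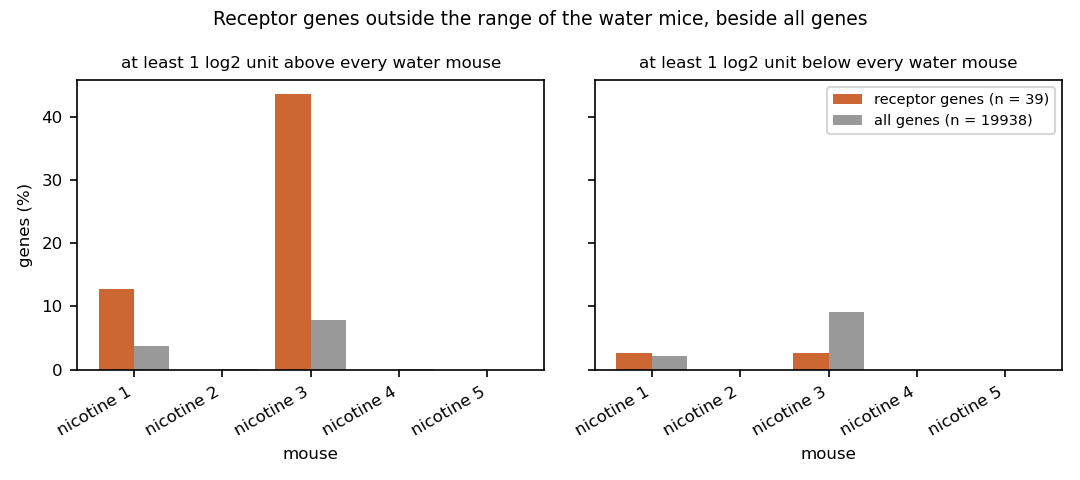
Bars give the percentage of the 39 receptor genes and of all 19938 genes that were at least 1 log2 unit above (left) or below (right) every water mouse, for each nicotine mouse. In nicotine 3 the bar above is 43.6% for receptor genes and 7.81% for all genes, and in nicotine 2, 4 and 5 the bars for receptor genes are at 0.

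In the comparison of all 5 nicotine with all 5 water mice, limma called no receptor gene. In that fit 0 of 39 had an adjusted p under 0.05, where 0.0% of all genes did, and the smallest adjusted p among them was 0.514. The fit gave 1 receptor gene higher at an unadjusted p under 0.05 (Grm2, against 3.93% of all genes) and 0 lower (against 5.31%). The groups overlapped in all 39 genes, while they did not overlap in 3.95% of all genes (1.63% with nicotine higher and 2.33% lower). With array weights in limma, which count aberrant arrays less, 2.35% of all genes and 0 of 39 receptor genes passed an adjusted p of 0.05. The difference, nicotine minus water, was positive in 36 of 39 (92.3%), against 52.7% of all genes, with a median of 0.22 log2 units against 0.01. Without nicotine 1 and 3, 22 of 39 (56.4%) were positive, against 54.6% of all genes, and the median was 0.03 against 0.01. In that fit 0 of 39 passed an adjusted p of 0.05, where 0.0% of all genes did. The SD within the group was larger in nicotine than in water mice in 31 of 39 genes (79.5%), against 77.2% of all genes. Its median over the receptor genes was 0.107 in water mice against 0.579 in nicotine mice, and 0.080 in nicotine mice without 1 and 3. Over all genes these medians were 0.094, 0.196 and 0.076.

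Many of these genes read at the level of the olfactory receptor genes, most of which are known from the nose, although a few are known in prostate. The array held 1027 of these, and 95% of them had a water mean under 6.77. Only 15 of the 39 receptor genes had a water mean above this level, against 70.3% of all genes, so for the other 24 the water value may hold little signal. For single mice, the level was set anew as the value that 95% of the olfactory genes stayed under on that mouse's own array. Above it were 12 to 16 of the 39 receptor genes in the water mice and in nicotine 2, 4 and 5, against 69.7% to 71.3% of all genes. In nicotine 1 there were 21, against 72.2% of all genes, and in nicotine 3 there were 25, against 70.3%. Of the 19 genes that went at least 1 log2 unit outside the water range, 12 were not above the olfactory level in water mice. A fold change from such a level on an array may understate the true one.

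Promoter sequences are shown to set the letters before the start of some receptor genes beside their values in nicotine 1 and 3. REST, a repressor that silences neuronal genes outside neurons, binds an element whose left and right arms hold the letters CAGCACC and GGACAGC. RefSeq windows (assembly GRCm38.p6), each running from 250 bases before a transcription start to 50 after it, were available for 29 of the 39 genes, 36 windows in all. Both motifs were searched on both strands, and they do not overlap each other where they were found. GGACAGC occurred in 4 of 36 windows (11.1%), against 6.56% of all 32851 windows of that length. CAGCACC occurred in 1 of 36 (2.78%), against 7.14%. A match of 7 letters is a description of the sequence and not a binding site. Below are the 250 bases before the start for the 4 genes with a match and for Gria4 and Grik2, which were at least 1 log2 unit above every water mouse in both nicotine 1 and nicotine 3. Grm8 and Gabrb1 were also that far above in both mice but are not printed. The 4 with a match were chosen after the search. All 6 lie on the minus strand and are printed 5′ to 3′ in the direction of the gene, with matches in capitals (GCTGTCC is GGACAGC read on the other strand). The windows are Gria2 at chr3:80802836-80803085, Glrb at chr3:80913661-80913910, Glra2 at chrX:165327394-165327643, Grm2 at chr9:106656110-106656359, Gria4 at chr9:4796235-4796484 and Grik2 at chr10:49788755-49789004.
Gria2: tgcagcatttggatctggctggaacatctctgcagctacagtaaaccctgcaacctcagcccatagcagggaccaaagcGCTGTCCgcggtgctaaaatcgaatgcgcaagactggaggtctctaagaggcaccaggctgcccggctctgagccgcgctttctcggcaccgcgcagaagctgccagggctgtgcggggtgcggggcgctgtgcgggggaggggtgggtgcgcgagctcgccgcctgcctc
Glrb: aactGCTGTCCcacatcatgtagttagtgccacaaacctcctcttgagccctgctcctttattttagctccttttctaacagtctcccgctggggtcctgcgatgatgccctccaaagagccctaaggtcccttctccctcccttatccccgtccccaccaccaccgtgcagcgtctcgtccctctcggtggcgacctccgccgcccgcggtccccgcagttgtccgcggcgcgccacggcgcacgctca
Glra2: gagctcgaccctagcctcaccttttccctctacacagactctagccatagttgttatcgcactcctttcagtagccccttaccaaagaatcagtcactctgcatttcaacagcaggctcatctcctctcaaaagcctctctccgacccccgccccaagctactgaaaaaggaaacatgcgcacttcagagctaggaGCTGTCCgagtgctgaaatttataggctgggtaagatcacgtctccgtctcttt
Grm2: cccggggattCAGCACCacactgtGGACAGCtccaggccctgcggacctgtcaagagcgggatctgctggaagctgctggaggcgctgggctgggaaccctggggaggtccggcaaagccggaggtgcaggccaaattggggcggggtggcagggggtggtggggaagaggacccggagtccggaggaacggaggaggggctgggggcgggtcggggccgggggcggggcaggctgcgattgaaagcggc
Gria4: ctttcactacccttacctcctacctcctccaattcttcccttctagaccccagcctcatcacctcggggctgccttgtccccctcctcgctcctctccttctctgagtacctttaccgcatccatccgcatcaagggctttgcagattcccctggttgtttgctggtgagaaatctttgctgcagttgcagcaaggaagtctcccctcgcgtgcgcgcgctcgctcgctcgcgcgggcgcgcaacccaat
Grik2: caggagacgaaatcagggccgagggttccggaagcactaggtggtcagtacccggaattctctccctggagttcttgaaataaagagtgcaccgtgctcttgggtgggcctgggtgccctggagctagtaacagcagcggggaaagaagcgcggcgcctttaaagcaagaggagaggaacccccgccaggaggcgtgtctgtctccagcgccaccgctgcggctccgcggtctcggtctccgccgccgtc
Counted from the transcription start, the GGACAGC match began at -171 in Gria2, -246 in Glrb, -54 in Glra2 and -226 in Grm2. Only the Grm2 window held exact matches of both motifs, with CAGCACC at -240 on the same strand. Inexact matches were not searched, so this does not set Grm2 apart. In Gria2, GCTGTCC is followed by gcggtgcta, which holds tagcacc on the other strand. In Glra2 it is followed by gagtgctga, which holds cagcact. Both are close to CAGCACC. Gria4 and Grik2 held neither set of letters in this window.

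The AMPA receptor, the channel of fast excitation, has subunits GluA1 to GluA4 from Gria1 to Gria4, and Gria2 and Gria4 shared a pattern over the mice that Gria1 and Gria3 did not have. Gria2, whose subunit keeps calcium from passing through the channel, read 4.71, 5.12, 4.82, 4.83 and 4.56 in water mice 1 to 5 against 5.99, 4.77, 9.96, 5.02 and 4.82 in nicotine mice 1 to 5. Nicotine 3 stood 35.6-fold and nicotine 1 2.27-fold above the water mean, while the other nicotine mice lay within the water range. Nicotine minus water was 1.30 ± 0.91 log2 units (SE), adjusted p = 0.530 by limma. Gria4 read 5.87, 5.91, 5.75, 5.95 and 5.70 in water mice against 6.98, 5.86, 10.43, 5.89 and 5.72 in nicotine mice, so that again only nicotine 1 and 3 were high, the latter by 24.2-fold. Its difference was 1.14 ± 0.82 (SE), adjusted p = 0.533 by limma.

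Gria3 had the opposite order in these mice. It read 7.51, 7.21, 7.38, 7.16 and 7.19 in water mice against 9.84, 6.81, 8.25, 6.89 and 6.80 in nicotine mice. Nicotine 1 was highest, 5.86-fold above the water mean, nicotine 3 was next, and nicotine 2, 4 and 5 lay below every water mouse. Over all mice nicotine minus water was 0.43 ± 0.55 (SE), adjusted p = 0.699 by limma, and without nicotine 1 and 3 it turned to -0.46 ± 0.08 (SE). That fit gave an unadjusted p of 0.000234 and an adjusted p of 0.101 by limma, and the exact permutation p was 0.0179, the smallest that 3 against 5 mice allow. Gria3 was the only receptor gene whose groups did not overlap without those mice, where 5.19% of all genes did not overlap in the lower direction and 3.52% in the higher.

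Gria1 was the AMPA gene that was low in nicotine 1 and 3. It read 7.91, 7.74, 8.02, 7.69 and 7.73 in water mice against 6.98, 7.61, 6.72, 7.73 and 8.15 in nicotine mice. Nicotine 5 was the highest of all mice and nicotine 1 and 3 the lowest, and the groups overlapped. The difference was -0.38 ± 0.25 (SE), adjusted p = 0.523 by limma.

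Kainate receptors, which tune transmitter release and excitability, are formed by low-affinity subunits from Grik1 to Grik3 and high-affinity ones from Grik4 and Grik5. Grik2 read 6.08, 6.04, 6.03, 6.0 and 5.76 in water mice against 7.51, 5.86, 10.87, 6.02 and 5.89 in nicotine mice. Nicotine 3 was 29.6-fold and nicotine 1 2.89-fold above the water mean, with the others in the water range. Nicotine minus water was 1.25 ± 0.88 (SE), adjusted p = 0.532 by limma. Grik4 was high in nicotine 3 alone, at 6.65, 7.03, 6.80, 6.74 and 6.99 in water mice against 6.85, 6.77, 9.35, 6.71 and 6.91 in nicotine mice. Grik5 read 8.55, 8.44, 8.38, 8.40 and 8.50 in water mice against 8.94, 8.55, 9.90, 8.52 and 8.57 in nicotine mice. Nicotine 3 and then nicotine 1 were its highest mice and nicotine 5 lay just above the water range, and the difference was 0.44 ± 0.24 (SE), adjusted p = 0.514 by limma. Grik1 and Grik3 were higher in nicotine 3 by less than the unit used for counting, at 6.39 and 7.60 against highest water values of 5.61 and 6.97.

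NMDA receptors need glycine or serine beside glutamate and pass calcium. Of their 6 genes on the array, Grin3a, whose subunit lowers calcium flow, showed the widest departure. It read 6.11, 6.35, 6.29, 6.20 and 6.10 in water mice against 6.65, 6.19, 9.43, 6.21 and 6.03 in nicotine mice. Nicotine 3 was 9.28-fold above the water mean, and nicotine 1 was 0.30 log2 units above the highest water mouse. The difference was 0.69 ± 0.59 (SE), adjusted p = 0.575 by limma. Grin2b was 7.30 in nicotine 3 against 5.96 to 6.03 in water mice and 5.96 in nicotine 1. Grin2a, Grin2c, Grin2d and Grin3b stayed within 0.5 log2 units of the water range in every mouse.

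Metabotropic glutamate receptors fall into groups by their signalling, and the genes furthest from the water mice belonged to different groups. Grm8, of the group that lowers cyclic AMP, read 5.11, 5.56, 5.30, 5.38 and 5.34 in water mice against 7.32, 5.50, 8.06, 5.28 and 5.43 in nicotine mice. Nicotine 3 was 6.61-fold and nicotine 1 3.96-fold above the water mean, and the other nicotine mice lay in the water range. Its difference was 0.98 ± 0.53 (SE), adjusted p = 0.514 by limma. Grm7, of the same group and known at release sites, read 7.15, 7.39, 7.26, 7.12 and 7.07 in water mice against 7.23, 7.14, 10.58, 7.06 and 7.18 in nicotine mice. In contrast to Grm8, nicotine 1 was inside the water range for Grm7, and nicotine 3 was 10.4-fold above the water mean.

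Grm5, which signals through phospholipase C, read 6.89, 7.02, 6.74, 6.93 and 6.88 in water mice against 7.07, 7.12, 9.75, 6.99 and 7.02 in nicotine mice. Apart from the 7.26-fold excess in nicotine 3, the remaining nicotine mice sat at the top of the water range or just above it. The difference was 0.70 ± 0.50 (SE), adjusted p = 0.533 by limma, and without nicotine 1 and 3 it was 0.15 ± 0.07 (SE) with an unadjusted p of 0.0475 and an adjusted p of 0.398. It was then the single receptor gene higher at an unadjusted p under 0.05, where 5.21% of all genes were.

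Grm2, which also lowers cyclic AMP, had the smallest p of the receptor genes. It read 7.32, 7.53, 7.22, 7.35 and 7.23 in water mice against 7.93, 7.49, 8.02, 7.42 and 7.53 in nicotine mice. Nicotine 1 and 3 were the highest, and the other nicotine mice lay in the upper part of the water range or at its top. Nicotine minus water was 0.35 ± 0.13 (SE), unadjusted p = 0.0234 and adjusted p = 0.514 by limma. Grm3, related to Grm2, differed by 0.11 ± 0.06 (SE) with an unadjusted p of 0.0898 by limma, and its nicotine values were 5.85, 5.89, 5.98, 6.01 and 5.85 against 5.78, 5.92, 5.86, 5.74 and 5.76 in water mice. Over the 39 exact permutation tests, Grm2, Grm5 and Grik5 each had p = 0.0238, where 5 against 5 mice can reach 0.00794. These p-values were not adjusted for the 39 tests. By limma the unadjusted p was 0.192 for Grm5 and 0.101 for Grik5. Grm4 and Grm6 stayed within 0.5 log2 units of the water range.

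**Figure D3:**
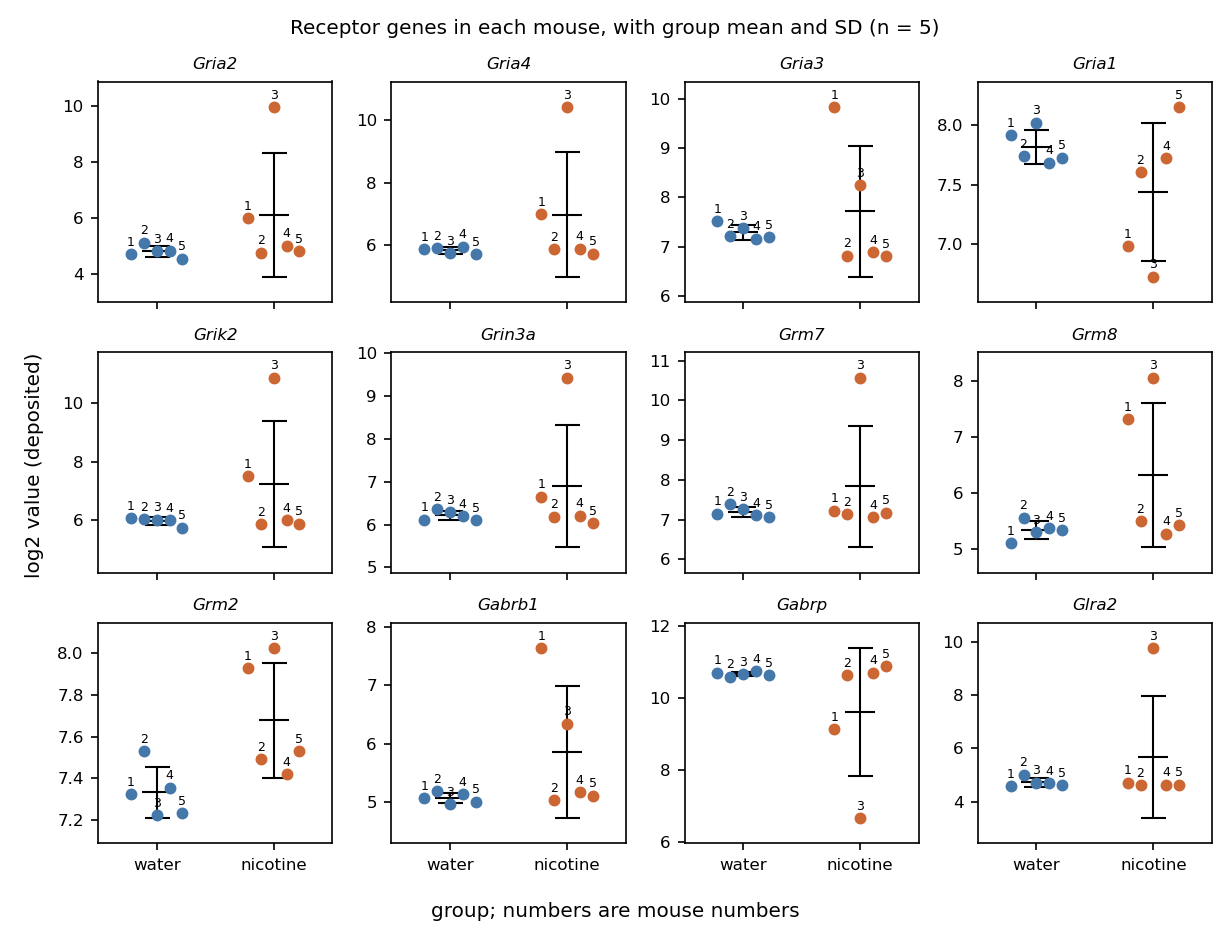
Points give the deposited log2 value (vertical axis, a separate scale per gene) of 12 receptor genes in each of 5 water and 5 nicotine mice, labelled by mouse number, and bars give the group mean and SD. The nicotine SD is wide because of mice 1 and 3: Glra2 is high in nicotine 3 alone at 9.75, Gabrb1 is highest in nicotine 1 at 7.64, and Gabrp is lowest in nicotine 3 at 6.66.

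GABA-A receptors are chloride channels that combine alpha, beta and other subunits. Gabrp, which encodes the pi subunit found in epithelia rather than at synapses, was the receptor gene furthest below the water mice. It read 10.69, 10.58, 10.65, 10.73 and 10.62 in water mice against 9.13, 10.62, 6.66, 10.69 and 10.86 in nicotine mice. Nicotine 3 was 15.9-fold and nicotine 1 2.88-fold below the water mean, and nicotine 5 was the highest of all. The value in nicotine 3 was under the olfactory level of 6.77, so its fold may understate the true one. The difference was -1.06 ± 0.73 (SE), adjusted p = 0.528 by limma. The luminal marker mean was lowest in the same mice, nicotine 3 and then nicotine 1, and its part in this result was not tested.

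Several GABA-A subunit genes known from synapses were higher in nicotine 1 or 3. Gabrb1, a beta subunit, read 5.07, 5.19, 4.96, 5.13 and 5.01 in water mice against 7.64, 5.03, 6.34, 5.18 and 5.11 in nicotine mice. Nicotine 1, at 5.92-fold, exceeded nicotine 3, at 2.42-fold, and the others stayed in the water range. Nicotine minus water was 0.79 ± 0.46 (SE), adjusted p = 0.514 by limma. Gabra2, an alpha subunit, was 8.29 in nicotine 3 (6.91-fold) against 5.43 to 5.56 in water mice and 5.57 in nicotine 1. Gabra3 was 8.86 (5.73-fold) against 6.18 to 6.49 and 6.30 in nicotine 1. Gabrg1, a gamma subunit, was 7.29 (4.96-fold) against 4.89 to 5.10 and 4.98 in nicotine 1. These alpha and gamma genes were thus high in nicotine 3 with little or no shift in nicotine 1. Gabra5 was also high in nicotine 3, at 8.02 (4.39-fold), and at 6.03 in nicotine 1 lay just above the 5.85 to 6.0 of water mice.

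Genes that neighbour each other did not share 1 pattern. On chromosome 5, Gabrg1, Gabra2, Gabra4 and Gabrb1 lie together, with 1 protein-coding gene between Gabra2 and Gabra4 and 0 between the other neighbours. Gabrg1 and Gabra2 were high in nicotine 3 alone, while Gabrb1 was highest in nicotine 1. Gabra4 read 8.43, 8.49, 8.06, 8.66 and 8.43 in water mice against 8.28, 8.24, 9.05, 9.16 and 8.15 in nicotine mice, so nicotine 4 was its highest mouse. On chromosome 7, Gabra5 was high in nicotine 3 and its neighbour Gabrg3 was not, at 6.40 against 6.14 to 6.42 in water mice. Gabra6, Gabrb2, Gabrd, Gabre and Gabrg3 stayed within 0.5 log2 units of the water range in all mice, and the difference of Gabra6 was -0.02 ± 0.06 (SE).

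Glycine receptors are chloride channels of alpha subunits and the beta subunit from Glrb, which ties them to the scaffold gephyrin. Glra2, the alpha subunit of the developing nervous system, read 4.57, 5.02, 4.72, 4.69 and 4.62 in water mice against 4.71, 4.62, 9.75, 4.64 and 4.65 in nicotine mice. It was 32.7-fold above the water mean in nicotine 3 and inside the water range in every other nicotine mouse, with a difference of 0.95 ± 0.93 (SE), adjusted p = 0.615 by limma. Glrb read 7.55, 7.48, 7.40, 7.83 and 7.06 in water mice against 8.12, 7.17, 9.97, 7.55 and 7.60 in nicotine mice. Nicotine 3 was 5.66-fold above the water mean and nicotine 1 was the next highest, with a difference of 0.62 ± 0.47 (SE), adjusted p = 0.546 by limma. Glrb and Gria2 are neighbours on chromosome 3 with 0 protein-coding genes between them, and both were highest in nicotine 3 and next highest in nicotine 1. The alpha genes Glra1, Glra3 and Glra4 stayed within 0.5 log2 units of the water range.

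Nicotine 1 and nicotine 3 therefore shared some receptor genes and not others. Of the 17 genes far above the water mice in nicotine 3, 13 were not so in nicotine 1, and 1 gene, Gria3, was far above them in nicotine 1 only. Gria4, Grik2, Grm8 and Gabrb1 were far above them in both, as were 2.31% of all genes. These counts compare 2 single mice, with 1 array each, so they carry no test.

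**Figure D4:**
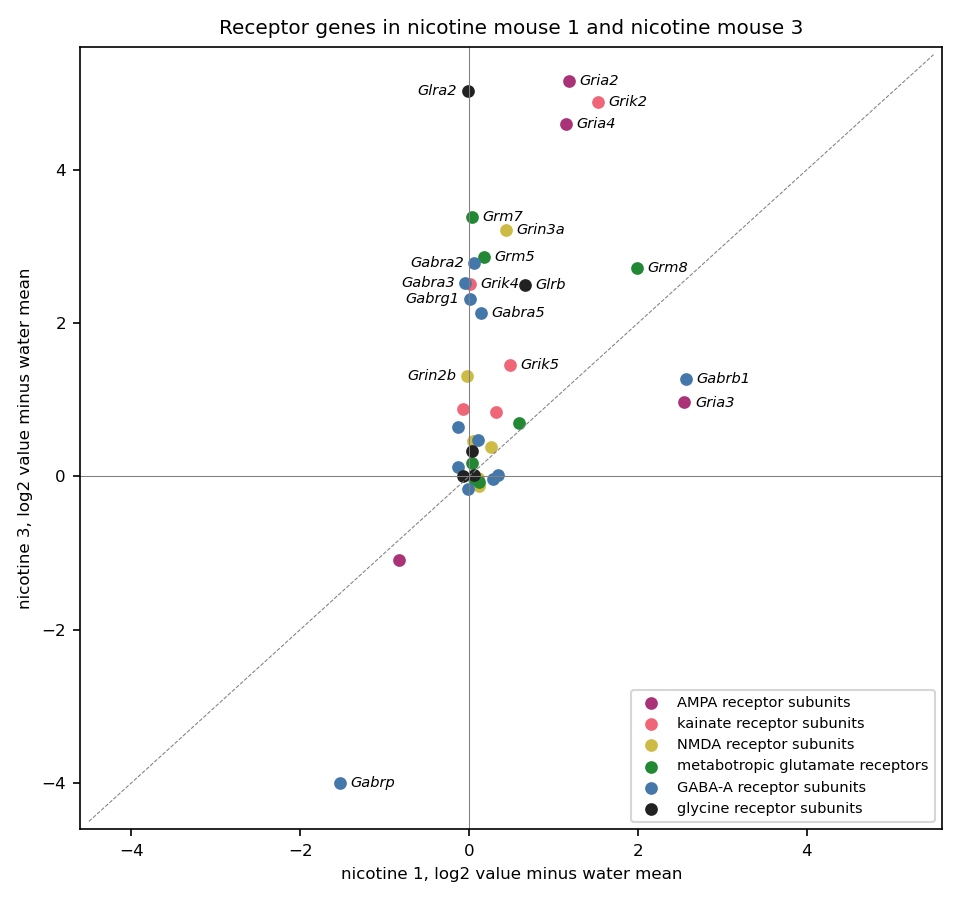
Each point is 1 of the 39 receptor genes, coloured by class, with its log2 value minus the mean of the 5 water mice in nicotine 1 (horizontal) and nicotine 3 (vertical), and the dashed line marks equal differences. Glra2, Grm7, Gabra2, Gabra3, Gabrg1, Grik4 and Grin2b lie near the vertical line at 0, high in nicotine 3 only, while Gria2, Gria4, Grik2 and Grm8 lie to its right, Gabrb1 and Gria3 lie below the dashed line, and Gabrp is low in both.

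Markers of other cell types also differed between the mice, most of them in nicotine 1 or 3. The mean of neuroendocrine markers (17 of 19 on the array) was 6.94 to 7.44 in water mice. It was 9.15 in nicotine 1, 9.40 in nicotine 3 and 7.11 to 7.38 in the other nicotine mice. Of the 17, 11 in nicotine 1 and 13 in nicotine 3 were at least 1 log2 unit above every water mouse. Over all genes, 3.78% were that far above in nicotine 1 and 7.81% in nicotine 3. That far below were 2.13% of all genes in nicotine 1 and 9.17% in nicotine 3. The mean of autonomic neuron markers (12 of 13) was 6.98 to 7.65 in water mice, 7.67 in nicotine 1 and 8.00 in nicotine 3. In nicotine 3, 3 of these 12 were far above the water mice, with Elavl4 at 11.08, while Th and Dbh, the noradrenaline synthesis genes, stayed in the water range at 7.08 and 7.09. Nerve glia markers (9 of 11) averaged 7.67 to 8.16 in water mice, 7.78 in nicotine 1 and 7.30 in nicotine 3, below every water mouse. Skeletal muscle markers averaged 7.24 to 7.39 in water mice, 9.96 in nicotine 1 and 7.11 in nicotine 3, and all 12 were far above the water mice in nicotine 1. The 14 proliferation genes averaged 9.53 to 9.74 in water mice, 10.6 in nicotine 1, 11.3 in nicotine 3 and 9.92 to 9.97 in nicotine 2, 4 and 5, so all 5 nicotine mice lay above every water mouse in this mean. Smooth muscle markers averaged 10.5 to 10.8 in water mice, 10.02 in nicotine 1 and 8.15 in nicotine 3, where 9 of 12 were far below the water mice. Seminal vesicle markers varied within both groups, from 7.21 to 13.2 in water mice and from 7.96 to 12.5 in nicotine 2, 4 and 5, and were lowest in nicotine 1 and 3, at 6.86 and 5.92. The part of these cell types in the receptor values was not tested.

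Relatives of these receptors outside the naming rule gave a mixed picture. Of 11 on the array, 4 were far above the water mice in nicotine 3 (7.81% of all genes were) and 1 in nicotine 1 (3.78%). Far below were 2 in nicotine 3 (9.17%) and 1 in nicotine 1 (2.13%). Gabbr2, a subunit of the metabotropic GABA-B receptor, was 9.49 in nicotine 3 against 6.75 to 7.08 in water mice. Grid1, a delta-type relative of the glutamate channels, was 8.62 in nicotine 3 and 7.60 in nicotine 1 against 6.35 to 6.60. Gabbr1, the partner of Gabbr2, was 10.57 in nicotine 3 against 8.68 to 8.91, and Gabrq, the theta subunit of GABA-A receptors, was 7.64 and 7.78 in nicotine 1 and 3 against 6.03 to 6.17. These last genes were chosen after their values were seen. Gprc5a, an orphan relative of the metabotropic receptors found in epithelia, was 6.89 in nicotine 3 and 9.08 in nicotine 1 against 10.17 to 10.53 in water mice. Gprc5c was also among the 4 of these relatives furthest outside the water range.

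Some genes for proteins that assemble and anchor the receptors were high in nicotine 1 or 3. Of 32 such genes on the array, 13 were far above the water mice in nicotine 3 (7.81% of all genes were), 6 in nicotine 1 (3.78%) and 3 in both, and 2 were far below in nicotine 3 (9.17%). Those 2 were the scaffold genes Dlg1, at 9.04 against 10.87 to 10.97 in water mice, and Shank2, at 8.73 against 10.07 to 10.37, named after their values were seen. Cacng7, an AMPA receptor auxiliary subunit, was 11.06 in nicotine 3 and 7.75 in nicotine 1 against 7.25 to 7.38. Cnih2, which carries AMPA receptors to the surface, was 10.36 and 8.57 in nicotine 3 and 1 against 7.64 to 7.74. Neto2, an auxiliary subunit of kainate receptors, was 10.49 and 9.14 against 6.97 to 7.24. Its relative Neto1, chosen after its values were seen, was 8.30 in nicotine 1 and 5.68 in nicotine 3 against 5.57 to 5.83. Nlgn1, an adhesion protein of excitatory synapses, was 10.30 in nicotine 3 and 7.32 in nicotine 1 against 6.49 to 6.69. By limma 0 of the 32 passed an adjusted p of 0.05, and the smallest unadjusted p belonged to Gphn, the gephyrin gene, at -0.21 ± 0.08 (SE) and adjusted p = 0.514.

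Enzymes that make GABA separated nicotine 1 from nicotine 3. Gad1, a glutamate decarboxylase, was 10.83 in nicotine 1 and 7.37 in nicotine 3 against 7.10 to 7.41 in water mice. Gad2, the other decarboxylase, was 10.15 in nicotine 3 and 6.68 in nicotine 1 against 5.79 to 7.31. Each was thus far above the water mice in a single mouse, and in a different one. Glul, which makes glutamine from glutamate, was 10.26 in nicotine 3 against 12.00 to 12.35, and Amt, part of the glycine cleavage system, was 8.89 against 9.69 to 9.93. Of the 13 genes on the array, Gad1, Gad2 and Glul were the only ones at least 1 log2 unit outside the water range in a nicotine mouse. In nicotine 1 that is 7.69% above, against 3.78% of all genes. In nicotine 3 it is 7.69% above and 7.69% below, near the 7.81% and 9.17% of all genes.

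Transporters for these transmitters and for chloride showed 3 of 20 genes far above and 3 far below the water mice in nicotine 3, and 1 each way in nicotine 1. That is 15% each way in nicotine 3, against 7.81% of all genes above and 9.17% below, and 5.0% in nicotine 1, against 3.78% and 2.13%. Slc12a2, which loads cells with chloride, was 8.94 in nicotine 3 and 12.72 in nicotine 1 against 12.99 to 13.10. Slc12a5, the neuronal transporter that removes chloride, was 8.18 in nicotine 3 against 6.89 to 7.28 and was chosen after its values were seen. Slc1a5, which carries glutamine, was 8.01 against 11.73 to 11.90. Slc6a9, a glycine transporter, was 8.76 in nicotine 3 and 9.66 in nicotine 1 against 10.81 to 10.93, while the GABA transporter gene Slc6a11 was 8.55 in nicotine 3 against 6.63 to 6.98.

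Rest, the gene of the repressor introduced with the promoters, was low in nicotine 1 and 3, and some partner genes were high. Rest was 9.70, 9.28, 9.38, 9.28 and 9.61 in water mice against 8.44, 9.52, 6.98, 9.48 and 9.43 in nicotine mice. Nicotine 1 and 3 lay below every water mouse and the others within their range, with a difference of -0.68 ± 0.46 (SE), adjusted p = 0.527 by limma. Rcor2, a corepressor partner, was 8.48 and 9.14 in nicotine 1 and 3 against 6.97 to 7.12. Srrm4, a splicing factor of neurons known to alter the Rest transcript, was 7.76 and 8.49 against 6.14 to 6.55. Hdac2, a histone deacetylase of the complex, was 10.77 and 11.38 against 9.88 to 10.05. Of the 9 genes of this list, 3 were far above the water mice in nicotine 3 (33.3%, against 7.81% of all genes) and 2 in nicotine 1 (22.2%, against 3.78%). Far below was 1 in nicotine 3, Rest (11.1%, near the 9.17% of all genes), and 0 in nicotine 1, against 2.13%. By limma 0 of the 9 passed an adjusted p of 0.05. Of the genes printed above with a GGACAGC match, Gria2, Glrb and Grm2 had their highest values in nicotine 3 and 1, and Glra2 was high in nicotine 3 only. Gria4 and Grik2, without a match in the window, also had their highest values in nicotine 3 and 1. So did other receptor genes for which no match was found, among them Grm8, Gabrb1, Gria3, Grik5 and Grin3a. The pattern thus occurred with and without a match. Windows were not available for every receptor gene, so its share among genes with and without a match is not given. The part of Rest in the receptor values was not tested.

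**Figure D5:**
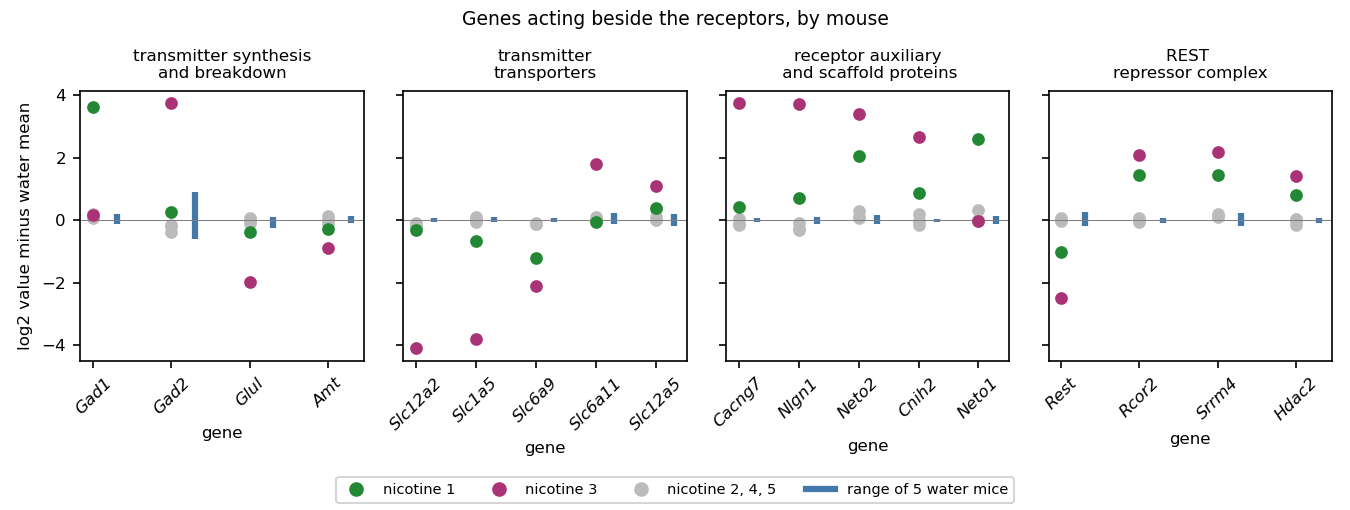
Points give the log2 value minus the mean of the 5 water mice (vertical axis) for genes that make, carry or anchor the transmitters or receptors and for REST and its partners, and blue bars give the range of the water mice. Gad1 is high in nicotine 1 only and Gad2 in nicotine 3 only, and Rest is low in both mice, at 8.44 and 6.98.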

How the data were processed

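The authors deposited 1 table of log2 values from single-colour Affymetrix whole-transcript arrays, with 35556 probe sets and 10 arrays, 1 per mouse. How the values were background-corrected, summarised and normalized is not stated in the labels; the scale was read from the range of 3.59 to 14.1. Separate mice, per the labels, are the replicates, and their number limits the precision. No scan dates were used here, so batches were not checked.

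Names came from the platform annotation, where 21789 probe sets had 1 symbol, and each of 19938 genes was represented by its probe set of highest mean. Only Gabrb2 among the receptor genes had several. All 39 matched RefSeq by Entrez identifier. All genes were fitted with limma 3.58.1 in R 4.3.3 (lmFit, eBayes, two-sided, Benjamini-Hochberg adjustment over all 19938 genes, threshold 0.05). The fit was tested on simulated data, drawn as independent normal values with the same spread in both groups. Those data held no aberrant arrays such as nicotine 1 and 3, so that test does not cover their effect on the fit. Exact two-sided permutation tests were run for single genes. Far above or below means at least 1 log2 unit outside the range of the 5 water mice. Tables and plots used Python 3.11.15 with pandas 2.3.3 and matplotlib 3.10.9.

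The receptor genes, gene lists and alternatives were chosen with earlier results of these data known, including that nicotine 1 and 3 stand apart. Named in full were the receptor genes with the smallest p in each direction (up to 4) and up to 16 of those furthest outside the water range; from each pathway list, up to 4 by p or by that excess. Both groups use the mouse numbers, and no label ties equal numbers together. The deviations of same-numbered mice correlated at -0.12 to 0.16, so the numbers were not used to pair mice.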

Additional observations from a re-analysis of the deposited data

Results flagged for a closer look

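Of 58 groups of 5 mice examined, 13 held a mouse whose gap to its nearest neighbour was over 0.71 of the range of its group. A chance rate of about 5% of groups does not apply to these counts, since most of the receptor genes examined were chosen for lying far outside the water range, and the groups share mice. Of the 13, 10 were receptor genes in nicotine 3. There, Gria2 read 9.96, Gria4 10.43, Grik4 9.35 and Grin3a 9.43. Grm5 read 9.75 and Grm7 10.58 in the same mouse, as did Gabra2 at 8.29, Gabra3 at 8.86 and Gabrg1 at 7.29. Glra2 read 9.75. In the water group, Grik2 in water 5 stood below the other 4 at 5.76, a small distance in log2 units. Among the marker lists, the luminal prostate mean was 6.96 in nicotine 3 and the skeletal muscle mean was 9.96 in nicotine 1, each far from the other nicotine mice.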

How the results depend on the processing

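No receptor gene passed an adjusted p of 0.05 by limma under any alternative run, including array weights, with which 2.35% of all genes passed; the weights were 0.157 for nicotine 1 and 0.0456 for nicotine 3. Of the recomputed differences of single genes, 386 kept their direction and 45 turned. With array weights the differences that turned were -0.065 for Gabra3, 0.050 for Gabrp, -0.055 for Glra2, 0.060 for Gria1, -0.39 for Gria3, -0.012 for Grik2, -0.10 for Grin3a and -0.038 for Grm7. Without nicotine 1 and 3 they were -0.0066 for Gabra2, -0.12 for Gabra3, 0.027 for Gabra6, -0.0032 for Gabrg1, 0.069 for Gabrp, -0.088 for Glra2, -0.023 for Glrb, 0.011 for Gria1, -0.46 for Gria3, -0.011 for Gria4, -0.057 for Grik2, -0.046 for Grik4, -0.072 for Grin3a and -0.072 for Grm7. With the neuroendocrine marker mean as a covariate they were -0.074 for Gabra2, -0.17 for Gabra3, 0.025 for Gabra6, -0.061 for Gabrg1, 0.13 for Gabrp, -0.22 for Glra2, -0.10 for Glrb, 0.022 for Gria1, -0.065 for Gria2, -0.44 for Gria3, -0.11 for Gria4, -0.16 for Grik2, -0.10 for Grik4, -0.15 for Grin3a and -0.16 for Grm7. That covariate is itself highest in nicotine 1 and 3.

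Leaving out each mouse in turn, the difference ran from -0.10 to 0.57 for Gabra3, -0.054 to 0.019 for Gabra6, -0.00068 to 0.60 for Gabrg1, -0.070 to 1.21 for Glra2, -0.10 to 0.66 for Gria3, -0.033 to 0.63 for Grik4 and -0.046 to 0.83 for Grm7. The sign turned without nicotine 1 for Gria3, without nicotine 3 for the others and also without water 4 for Gabra6. The count higher at an unadjusted p of 0.05 ran from 0 (without water 3 or 5 or nicotine 1) to 2 (without water 2 or nicotine 3 or 4). The count lower was 0 to 1 (1 without nicotine 5), the count whose groups do not overlap 0 to 2 (1 without water 1, 2 without water 2), and the count far below the water mice in nicotine 3 was 1 to 2 (2 without water 4).

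The count higher at that p was 2 with array weights and 0 with a replicate block, with the seminal vesicle marker mean as a covariate and with the neuroendocrine covariate. The count lower was 1 without nicotine 1 and 3, and the count whose groups do not overlap was 1 there and 2 after repeated quantile normalization. At 0.5 log2 units, 2 receptor genes were below the water mice in nicotine 1 and 2 in nicotine 3. Leaving out the lowest 25% of genes kept 19 receptor genes. Of these, 2 were far above in nicotine 1 and 7 in nicotine 3. That filter used the mean over all mice, so nicotine 1 and 3 helped to decide which genes were kept. Grik2 and Grin3a had water means of 5.98 and 6.21, under the cut of 6.55. Both were kept, with 10.87 and 9.43 in nicotine 3. These counts thus cannot show whether the excess depends on genes that are low in water mice. The matching share of all kept genes is not given. Under the replicate block the difference of Grm2 was 0.35. Only 1 of the 5 same-numbered pairs had deviations correlating over 0.1, and 1 water mouse correlated best with its own number, so the mice share only a number. The causes of these changes were not tested.

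The limits are the small number of mice, a single table of values whose normalization is not given, and probe sets that read near background for most of these genes in water mice.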
